A study of Homo sapiens with 8 samples.

Results

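Read-through rows of an FPKM table were examined in NALM6 cells, an established line from a human acute lymphoblastic leukemia of B-cell precursors. A row was taken as a read-through transcript when its symbol held 1 hyphen and the names on both sides of it were themselves row names. The rule found 113 such rows among 23621 rows that are not spike-ins, out of 1092 rows with 1 hyphen. They name 225 component genes, because RAB4B is part of 2 of the read-through names. Here the gene named before the hyphen is called the first gene and the gene named after it the second gene.

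All cells carried a doxycycline-inducible HMGN1 construct, and HMGN1 is a protein that binds nucleosomes. The construct encoded wild-type HMGN1 (WT) or the S20,24E mutant (SE), which is deficient in nucleosome binding. Cells were given vehicle or doxycycline (DOX, 100 ng/ml) for 6 hours, RNA was taken from equal numbers of cells with ERCC spike-in RNA added, and poly(A) libraries were sequenced. Construct and treatment give 4 groups of 2 libraries each, lettered A and B in the labels as biological replicates. The sources used here do not say whether each construct is 1 clone or whether the letters are separate cultures, so p-values measure the spread between these libraries, which may be technical.

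Read-through transcription arises when RNA polymerase II passes the polyadenylation signal of one gene and continues into the next gene on the same strand. Splicing then usually joins an upstream exon of the first gene to an exon of the second. The joined RNA may encode a fusion of both proteins, or may carry a premature stop codon and be degraded by nonsense-mediated decay. Because its exons largely belong to genes that also make their own transcripts, a short read from such an exon cannot by itself be given to one of them. The FPKM of a read-through row and of its genes are uncertain for that reason.

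The joints of the read-through rows that the results below turn on are shown first, since the joint is the stretch that neither gene alone contains. Each sequence runs 5′ to 3′ from the last first-gene exon of the read-through transcript, in lower case, into the second-gene exon joined to it, in capitals. All were read from GRCh38 with GENCODE 29 transcripts, a later build than the hg19 genome of the deposited values. INO80B-WBP1 is shown with 15 bases on each side and the others with 30.
INO80B-WBP1: cccccttttggctacCTTCGAGAGCTGTGC
POC1B-GALNT4: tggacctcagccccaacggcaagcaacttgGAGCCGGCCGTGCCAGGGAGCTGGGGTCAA
RBM14-RBM4: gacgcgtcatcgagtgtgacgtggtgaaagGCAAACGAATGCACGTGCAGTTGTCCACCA
BCL2L2-PABPN1: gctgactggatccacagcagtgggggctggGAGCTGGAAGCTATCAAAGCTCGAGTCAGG
TGIF2-C20orf24: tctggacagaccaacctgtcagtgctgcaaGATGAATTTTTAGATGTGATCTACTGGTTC
C7orf55-LUC7L2: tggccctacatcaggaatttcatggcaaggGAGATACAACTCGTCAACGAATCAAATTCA
COMMD3-BMI1: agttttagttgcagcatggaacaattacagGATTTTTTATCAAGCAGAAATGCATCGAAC
BLOC1S5-TXNDC5: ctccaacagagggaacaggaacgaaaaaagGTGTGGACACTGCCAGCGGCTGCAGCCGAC
RPS10-NUDT3: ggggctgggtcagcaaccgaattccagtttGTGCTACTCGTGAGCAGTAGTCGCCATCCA

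The introns removed at these joints differ widely in length. The INO80B-WBP1 joint spans chr2:74457860-74459643 on the plus strand, from the last base of the INO80B exon to the first base of the WBP1 exon, with 1782 bases removed. POC1B-GALNT4 has the shortest of the 9, 679 bases within chr12:89524440-89525120 on the minus strand. BLOC1S5-TXNDC5 has the longest, 121643 bases within chr6:7904723-8026367 on the minus strand. The RBM14-RBM4 joint spans chr11:66617057-66643450 and the BCL2L2-PABPN1 joint chr14:23308199-23322181, both on the plus strand. The compared transcripts of INO80B-WBP1 and BLOC1S5-TXNDC5 are annotated as targets of nonsense-mediated decay, and those of the other 7 as protein coding. TGIF2-C20orf24 is listed in GENCODE 29 as TGIF2-RAB5IF. No joint is shown for FKBP1A-SDCBP2 or C8orf44-SGK3.

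Across the set, the annotation placed most read-through transcripts inside the exons of their genes. Of the 113 rows, 103 were in GENCODE 29 by symbol or older symbol and 101 could be compared with both genes, and in all 101 the 3 genes lie on the same strand. The median transcript had 29.5% of its bases in exons of the first gene and 64.7% in exons of the second, and 57 of 101 had no base outside them. Over 90% lay inside in 84 of 101, and the share outside reached 77.6%. The second gene held the larger share in 74 of 101. The compared transcript was annotated as protein coding in 65 of 101 and as a nonsense-mediated decay target in 29. Among several transcripts, one with a single joint between the genes was taken first, then a protein coding one, then the longest. This split therefore partly follows the choice of transcript. Start sites were shared with the first gene: the RefSeq (GRCh38.p14) window around the start overlapped that of the first gene in 64 of 81 rows with both windows, and was identical in 40. It overlapped the window of the second gene in 1 of 71.

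Several facts of the whole series bear on these rows. HMGN1, the gene on the construct, was between 793 and 809 FPKM in the 4 WT libraries and between 1061 and 1427 FPKM in the 4 SE libraries. In none of the 4 pairs did it exceed, in the library labelled DOX, its level in the vehicle library of the same letter. The sources used here do not say whether construct RNA is counted in this row. The label DOX is therefore not borne out by this row, and the libraries are called by their labels throughout. All 12 markers of the B lineage were at or above 1 FPKM, with a summed level of 2024 to 2484 FPKM per library. Of 12 markers of other cells 1 was (LYZ), 6 were at the floor of the table (among them CD3D, CD2, HBB and EPCAM), and the sum was 1.68 to 5.06 FPKM. The spike-in sum ran from 5675 to 10042 FPKM, so unnormalized levels are per mapped fragment and not per cell.

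Read-through rows were low. Their mean over the 8 libraries was under 0.1 FPKM in 41 of 113, between 0.1 and 1 in 34, and at least 5 in 18. Of the 113, 38 reached the mean of 1 FPKM required for testing (33.6%), against 157 of the 225 component genes (69.8%) and 50.3% of the other rows without small RNA names. Together they made up between 0.0358% and 0.0434% of the summed FPKM of a library. Of the 75 rows under 1 FPKM, both genes reached 1 FPKM in 33, 1 gene did in 25 and neither did in 17. Low read-through rows were thus often found beside at least 1 gene that itself reached 1 FPKM.

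The value 0.01 marked these rows. No value of the unnormalized table lies between 0 and 0.01, and 259 of the 904 read-through values (28.7%) were exactly 0.01, against 4.17% of the values of component genes and 3.36% of those of other rows without small RNA names. For values of 0 the order was the reverse, with 8.30% of read-through values, 11.2% of those of component genes and 26.7% of those of the other rows. The contrast is thus in the value 0.01 and not in all values at or below it. At least 1 library was at 0.01 in 59 of 113 read-through rows, and all 8 were in 9. Another 5 (CCL15-CCL14, INS-IGF2, INMT-FAM188B, HOXA10-HOXA9 and MAGEA10-MAGEA5, named after their values were seen) were listed at 0 in every library. The sources used here do not say how the value 0.01 was set, and it is treated as a floor. A fitted difference that rests on libraries at this value depends on the pseudocount.

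Read-through rows were usually below their first gene, while the order against the second gene was mixed. Over all 113 rows the median of the mean levels was 0.282 FPKM, against 7.79 FPKM for the first genes and 3.26 FPKM for the second. Among the 38 tested rows it was 3.94 FPKM, against 19.97 and 5.84 FPKM, and the median ratio to the first gene was 0.244 and to the second 0.689. The read-through row was above its first gene in 8 of 38 and above its second in 17. It was below both in 15 and between them in 21. Across the 38 rows, which share libraries and largely share exons with their genes, the Spearman correlation of the mean level was 0.213 with the first gene and 0.472 with the second. Over the 85 rows where all 3 means were above the 0.01 floor the order was the reverse, 0.392 with the first gene and 0.197 with the second.

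**Figure D1:**
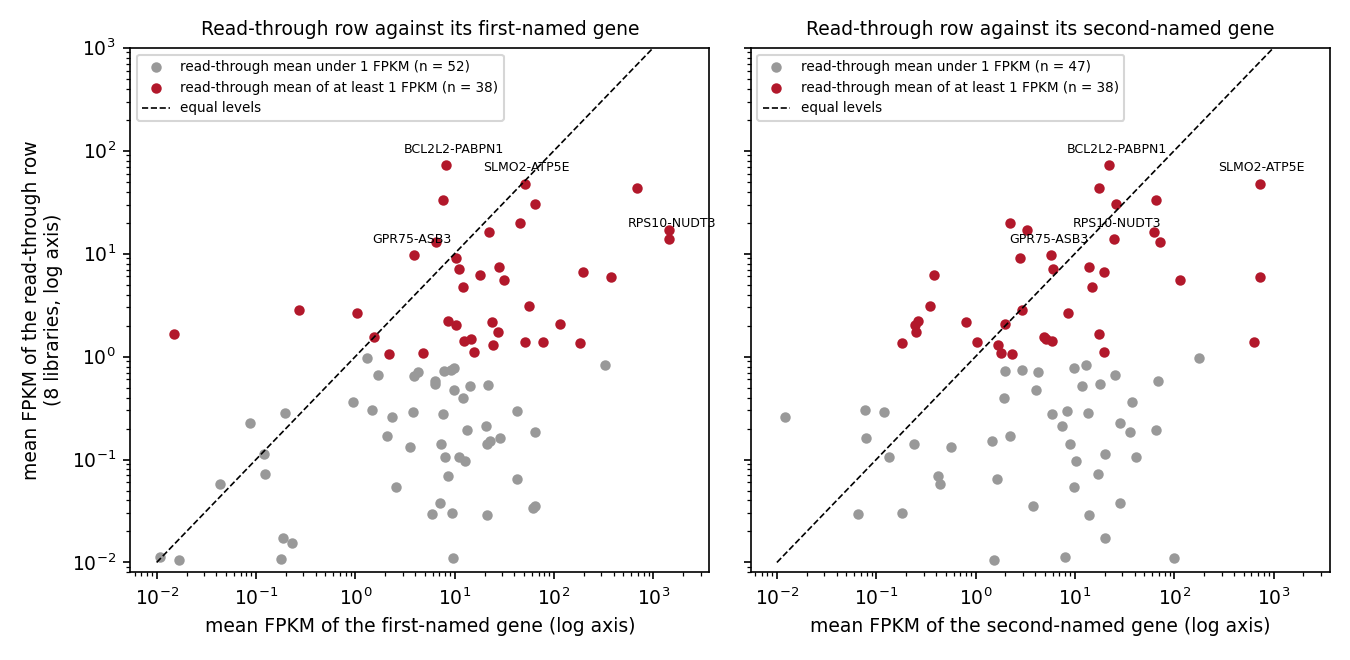
Mean unnormalized FPKM over 8 libraries of each read-through row (vertical log axis) against that of its first gene (left) and second gene (right, horizontal log axes); each point is 1 read-through row, rows or genes averaging the 0.01 floor or less are not drawn, and the dashed line marks equal levels. Most points lie below the line on the left, and BCL2L2-PABPN1 and GPR75-ASB3 are above it in both panels.

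BCL2L2-PABPN1 and GPR75-ASB3 had a higher mean than both of their genes. BCL2L2-PABPN1 joins the gene of BCL-W, a protein that protects from apoptosis, to that of the nuclear poly(A)-binding protein. It was the highest of all read-through rows, at 80.7 and 83.8 FPKM in WT A (vehicle, then DOX), 74.98 and 69.9 in WT B, 67.1 and 65.3 in SE A, and 66.5 and 71.1 in SE B. BCL2L2 averaged 8.15 FPKM and PABPN1 21.9, and neither reached the read-through level in any library. GPR75-ASB3 joins the gene of an orphan receptor to that of a SOCS-box protein of ubiquitin ligases. It ranged from 8.94 to 10.5 FPKM, above the range of GPR75 (3.51 to 4.32) and of ASB3 (4.77 to 6.41).

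The next highest rows were each below at least 1 of their genes. SLMO2-ATP5E, whose second gene encodes a subunit of mitochondrial ATP synthase, averaged 47.9 FPKM beside 724 for ATP5E. RPL36A-HNRNPH2, from a ribosomal protein gene to that of a splicing regulator, averaged 43.9 FPKM beside 682 for RPL36A and 17.5 for HNRNPH2. C7orf55-LUC7L2, whose second gene encodes a U1 snRNP-associated splicing factor, averaged 33.0 FPKM, and COMMD3-BMI1, whose second gene encodes a Polycomb protein, averaged 30.01. The other 5 of the 10 highest were HNRNPUL2-BSCL2 (20.05 FPKM), RPL17-C18orf32 (17.1), TGIF2-C20orf24 (16.4), RPS10-NUDT3 (13.7) and BLOC1S5-TXNDC5 (13.0). For RPL17 and RPS10, which encode ribosomal proteins, the mean was 1433.5 and 1453 FPKM, so that the read-through rows stood far below them, and genes of this kind have processed copies that may share their reads. HNRNPUL2-BSCL2 and RPL17-C18orf32 exceeded their second genes, BSCL2 (the seipin gene, 2.25 FPKM) and C18orf32 (3.26 FPKM). COMMD3-BMI1 also had a higher mean than its second gene, and C7orf55-LUC7L2 and BLOC1S5-TXNDC5 a higher mean than their first genes.

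Steadiness was then measured within same-letter pairs, as the absolute log2 ratio of the DOX to the vehicle library of one construct and letter, on log2(FPKM + 0.1). Each row was given the largest of its 4 pair values. The median over the 38 tested read-through rows was 0.32, against 0.10 for 83 first genes, 0.15 for 75 second genes and 0.09 for 10847 other rows without small RNA names. Only genes averaging at least 1 FPKM are counted here, which leaves out the low second genes of some tested rows. At least 1 pair differed by more than 2-fold in 6 of 38 read-through rows (15.8%), in 0 of 83 first genes, in 1 of 75 second genes and in 16 of the 10847 others (0.148%). Of the 6, INO80B-WBP1 and FKBP1A-SDCBP2 passed through libraries at the 0.01 floor, and with a pseudocount of 1 the count was 2. Over all 11340 tested rows this share was 2.2%, of which most came from small RNA names. The first gene was steadier than the read-through row in 33 of 38, and the second in 21. Among second genes of tested rows that averaged under 1 FPKM, several also passed 2-fold in a pair. Their largest changes were 1.66 (TNFRSF6B), 1.24 (TMEFF1), 1.20 (BGLAP), 1.16 (SDCBP2) and 1.14 (TICAM2). CORT (0.75) and RAB43 (0.49) did not pass it. SGK3 (1.02), which averaged above 1 FPKM, was the 1 of 75. The contrast in 2-fold counts between read-through rows and second genes thus depends on which second genes are counted. It is not seen when only the second genes of the 38 tested rows are taken, at any level. The coefficient of variation over the 8 libraries had a median of 15.7% for read-through rows, 8.44% for the 83 first genes, 11.2% for the 75 second genes and 7.55% for the others.

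Low rows were the least steady, and read-through rows had a higher median largest change than other rows at each level. Across the 38 rows the Spearman correlation between the largest pair change and the mean level was -0.66. Between 1 and 2 FPKM, 5 of 12 read-through rows passed 2-fold, with a median largest change of 0.71, against 5 of 831 other rows, with a median of 0.23. From 2 to 5 FPKM the medians were 0.32 (8 read-through rows) and 0.15, from 5 to 20 FPKM 0.23 (12 rows) and 0.09, and at 20 FPKM or above 0.17 (6 rows) and 0.07. In these 3 classes 0 of 8, 1 of 12 and 0 of 6 read-through rows passed 2-fold, so that excess was mainly between 1 and 2 FPKM. The medians of second genes lay between, at 0.39, 0.28, 0.14 and 0.10 from the lowest class to the highest. The correlation between the largest change and the share of transcript bases outside both genes was 0.26 over 35 rows, and with transcript length 0.05.

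**Figure D2:**
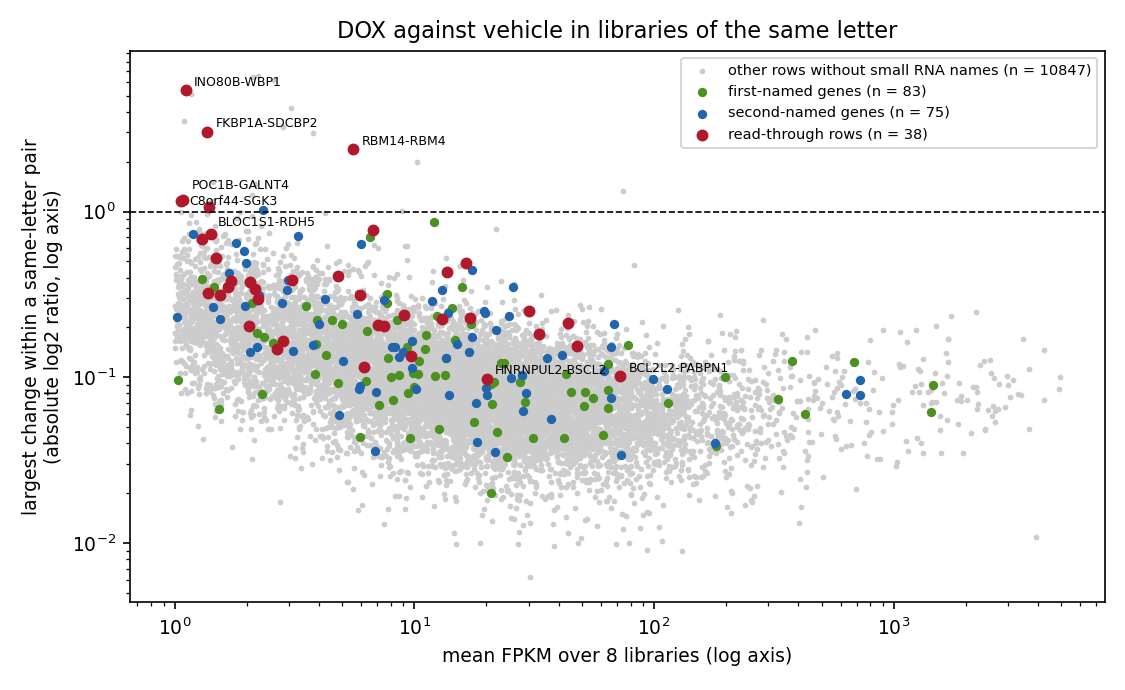
Largest absolute log2 ratio of DOX to vehicle among the 4 same-letter pairs (vertical log axis) against mean unnormalized FPKM (horizontal log axis) for tested rows without small RNA names; the dashed line marks 2-fold. Read-through rows lie high among rows of their own level, and 6 of 38 are above the line.

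INO80B-WBP1 was the least steady. INO80B encodes a subunit of the INO80 chromatin remodelling complex and WBP1 a protein that binds WW domains. The read-through row was at 0.987 and 0.580 FPKM in WT A (vehicle, then DOX), 0.01 and 2.11 in WT B, 4.54 and 0.01 in SE A, and 0.642 and 0.01 in SE B. It thus stood at the floor in 1 WT vehicle library and in both SE libraries labelled DOX, and was highest in 1 SE vehicle library. INO80B stayed between 11.8 and 18.5 FPKM and WBP1 between 16.6 and 23.3. INO80B was lowest, at 11.8 FPKM, in SE vehicle A, the library in which the read-through row was highest.

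RBM14-RBM4 had the widest swings among rows above 5 FPKM. Both genes encode RNA-binding proteins, and RBM4 regulates alternative splicing. The read-through row was at 6.90 and 4.88 FPKM in WT A (vehicle, then DOX), 5.53 and 0.981 in WT B, 1.75 and 7.22 in SE A, and 8.57 and 8.63 in SE B. WT DOX B and SE vehicle A stood apart as the low libraries, and they belong to different constructs and treatments. RBM4 moved from 114 to 117 FPKM in WT B and from 119 to 113 in SE A, against the read-through row in both pairs, while RBM14 kept to 29.3 to 32.8 FPKM.

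POC1B-GALNT4 moved one way in every pair. POC1B encodes a centriole protein and GALNT4 an enzyme that starts mucin-type O-glycosylation. The read-through row was at 0.493 and 1.24 FPKM in WT A (vehicle, then DOX), 0.569 and 1.13 in WT B, 0.563 and 1.28 in SE A, and 1.34 and 2.08 in SE B. GALNT4 was at 1.84 and 1.23 FPKM, 2.26 and 1.87, 2.67 and 2.16, and 1.45 and 0.891 in the same pairs. In all 4 pairs the read-through row was higher and GALNT4 lower in the library labelled DOX, although over both constructs the vehicle and DOX ranges overlapped. The sum of both rows was 2.34 and 2.48 FPKM in WT A and 2.80 and 2.97 in SE B, and POC1B stayed between 4.52 and 5.23. GALNT4 exons hold 92.6% of the bases of the compared read-through transcript and POC1B exons 4.21%.

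FKBP1A-SDCBP2 joins the gene of FKBP12, the immunophilin that binds tacrolimus, to that of a PDZ-domain protein. It was at 2.35 and 1.498 FPKM in WT A, 0.801 and 0.01 in WT B, 1.59 and 1.10 in SE A, and 1.86 and 1.71 in SE B. It was lower in the library labelled DOX in all 4 pairs and at the floor in WT DOX B. SDCBP2 was highest in that same library, at 0.807 FPKM, and lowest in WT vehicle A, at 0.01, where the read-through row was highest. FKBP1A stayed between 158 and 196 FPKM.

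C8orf44-SGK3, whose second gene encodes a serum- and glucocorticoid-regulated kinase, passed 2-fold in 1 pair: in WT A it went from 0.812 to 1.94 FPKM while SGK3 went from 2.18 to 1.03. BLOC1S1-RDH5 joins the gene of a subunit of a lysosome-related organelle complex to that of a retinol dehydrogenase. It was at 1.01 and 1.61 FPKM in WT A, 1.17 and 1.45 in WT B, 2.20 and 2.18 in SE A, and 1.10 and 0.476 in SE B, so that the pair over 2-fold was SE B. ATP6V1G2-DDX39B, whose second gene encodes an mRNA export helicase, averaged 0.967 FPKM and was not tested. It ranged from 0.288 FPKM in SE vehicle B to 1.64 in SE vehicle A, beside 169 to 187 FPKM for DDX39B.

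**Figure D3:**
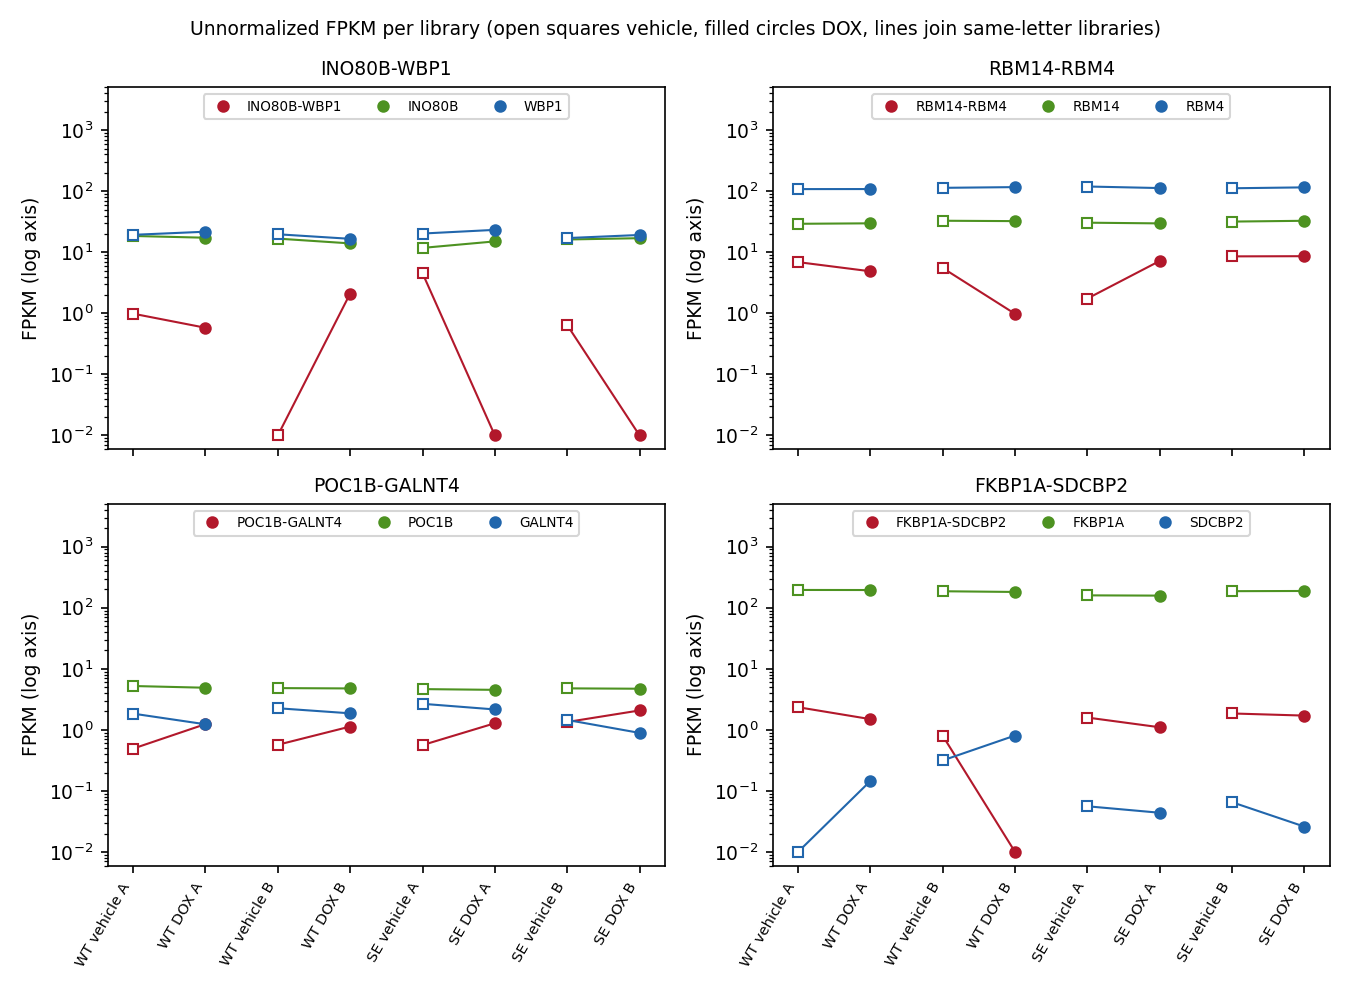
Unnormalized FPKM (log axis) of INO80B-WBP1, RBM14-RBM4, POC1B-GALNT4 and FKBP1A-SDCBP2 and of their genes in each of the 8 libraries; open squares are vehicle, filled circles DOX, and a line joins the libraries of one construct and letter. The read-through rows of INO80B-WBP1 and FKBP1A-SDCBP2 reach the 0.01 floor in 3 libraries and 1, while INO80B, WBP1 and FKBP1A keep nearly level.

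Among the steadiest read-through rows were HNRNPUL2-BSCL2, BCL2L2-PABPN1, ISY1-RAB43 and GPR75-ASB3, with a largest pair change of 0.10, 0.10, 0.12 and 0.14. HNRNPUL2-BSCL2 ranged from 18.6 to 21.1 FPKM over all 8 libraries. ISY1-RAB43, from a splicing factor gene to that of a RAB GTPase, ranged from 5.64 to 6.71 FPKM while RAB43 itself was under 0.5 FPKM in every library. These values are nonetheless above the median of other rows at their own level, and the lowest of the 38 lies above the median of all other rows without small RNA names.

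TGIF2-C20orf24 differed more between letters than within them. This row, whose first gene encodes a homeodomain repressor, was at 13.4 and 13.4 FPKM in WT A, 23.8 and 23.4 in WT B, 16.6 and 19.8 in SE A, and 12.1 and 8.63 in SE B. The WT pairs were nearly level, the SE B pair differed by -0.49 on the log2 scale, and the largest difference between letters was 1.19. The higher letter was B in WT and A in SE. In 27 of 38 read-through rows the largest same-letter change was below the largest change between letters, against 90.9% of other rows without small RNA names.

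Where a read-through row changed strongly, its second gene moved the other way. In 20 pair values from 9 rows the read-through row changed by more than 1.5-fold within a same-letter pair, and the second gene moved in the opposite direction in all 20, the first gene in 13. Of these, 10 were above 2-fold, with the second gene opposite in 10 and the first in 7. Among the 132 pair values under 1.5-fold the second gene was opposite in 84 and the first in 67. Between letters at the same treatment, the second gene was opposite in 23 of 27 values above 1.5-fold and the first in 8. For the rows averaging 0.1 to 1 FPKM the corresponding same-letter counts were 46 and 44 of 64, so the difference between first and second genes was not seen there. Values of one row share a target and are not independent, and no test was made.

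**Figure D4:**
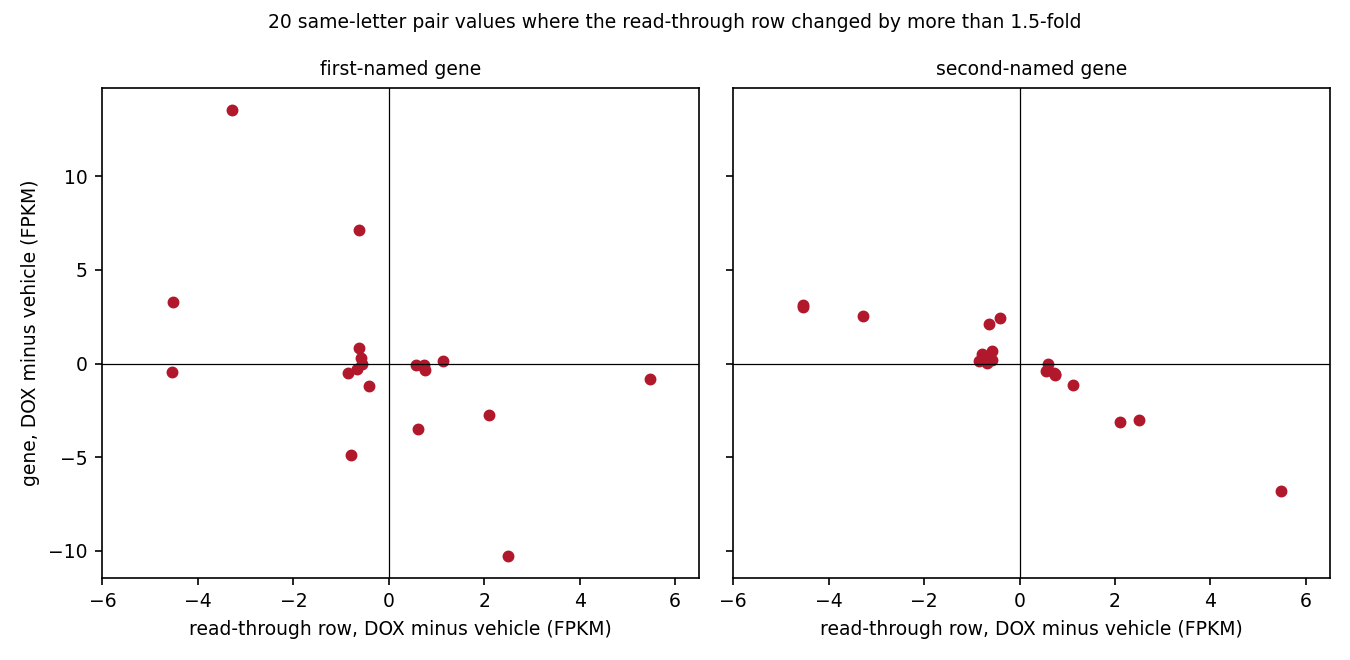
Change from vehicle to DOX in FPKM of the first gene (left) and second gene (right) against that of the read-through row, for the 20 same-letter pair values in which the read-through row changed by more than 1.5-fold. On the right all 20 points lie in the quadrants of opposite sign, and on the left 13 do.

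The opposite changes were within 1.5-fold of each other in size, in FPKM, in 11 of the 20 values. That of the second gene was smaller by more than this in 7 and larger in 2. RBM14-RBM4 was 5.47 FPKM higher in SE DOX A than in SE vehicle A and RBM4 was lower by 6.81 there (a DOX minus vehicle difference of -6.81 FPKM). In WT B the differences were -4.54 for RBM14-RBM4 and 3.14 for RBM4. C8orf44-SGK3 differed by 1.13 FPKM in WT A and SGK3 by -1.16. NEDD8-MDP1, named after its values were seen, differed by 2.50 FPKM in SE A and -3.29 in SE B, and its second gene MDP1 by -3.02 and 2.54. For INO80B-WBP1 in SE A the read-through difference was -4.53 FPKM and that of WBP1 3.01.

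Adding the second gene to the read-through row gave a steadier value in most rows. The sum had a lower coefficient of variation over the 8 libraries than either part in 27 of 38, and the median fell from 15.7% for the read-through rows and 13.1% for their second genes to 10.3% for the sums. With the first gene this held in 20 of 38, with a median of 8.27% for the first genes and 7.67% for the sums. For TGIF2-C20orf24 the value was 33.5%, for C20orf24 7.85% and for their sum 4.29%. For POC1B-GALNT4 it was 49.2%, for GALNT4 32.4% and for the sum 12.6%. For RPS10-NUDT3 it was 18.4%, for NUDT3, which encodes a Nudix hydrolase, 11.8%, and for the sum 5.12%. The read-through rows and second genes share exons and therefore reads, and the part of shared reads in these opposite changes was not tested. A sum of unrelated values can also vary less than either part, and no sums of unrelated rows were made for comparison. Whether the sums were steadier than such averaging alone would give was therefore not tested.

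The study's title concerns HMGN1 overexpression and transcription, and the comparisons of DOX with vehicle and of WT with SE address it. No tested read-through row passed an adjusted p of 0.05 in any of the 7 comparisons in limma with Benjamini-Hochberg adjustment over 11340 rows. For WT DOX minus WT vehicle 0.0441% of all rows were called, for SE DOX minus SE vehicle 0.0529% and for the difference of these effects 0.0441%. For WT minus SE in vehicle the share was 0.176% and in DOX 0.097%. For the mean DOX effect it was 0.0441% and for WT minus SE averaged over treatments 0.494%, both comparisons added after the data were seen. At these shares less than 1 call would fall among 38 rows. At an unadjusted p under 0.05 the read-through counts were 0, 2, 2, 3, 3, 1 and 7 of 38 in that order, beside 0.335%, 0.3%, 0.335%, 6.91%, 6.66%, 0.353% and 17.1% of all rows. The fit has no term for the letter, although deviations of same-letter libraries correlated at 0.757 (WT) and 0.720 (SE) without small RNA names. In the DOX comparisons the unadjusted shares of all rows lie far below the p threshold of 0.05, so this fit is conservative there over all rows. The read-through counts there, 0, 2, 2 and 1 of 38, do not show this for the read-through rows. With a replicate block, the only read-through call was BLOC1S5-TXNDC5, for WT minus SE averaged over treatments.

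The DOX comparisons left the read-through rows spread around 0. The median log2 difference was 0.00 for WT and -0.04 for SE, and the medians over all rows were close to 0. INO80B-WBP1 had the largest fitted difference between SE DOX and SE vehicle, -4.08 (SE 1.35, edges of the 95% interval -7.34 and -0.82, adjusted p 1 in limma), with groups that did not overlap. Since 3 of its libraries are at 0.01, this size depends on the pseudocount, and with a pseudocount of 1 it was -1.58. Its difference of DOX effects (WT minus SE) was 5.90 (SE 1.91, adjusted p 1.00 in limma), and 2.22 with a pseudocount of 1. For RBM14-RBM4 that difference was -2.43 (SE 1.26, adjusted p 1.00 in limma), the WT libraries labelled DOX being lower and the SE A library higher. It was -1.33 without WT DOX B and -1.32 without SE vehicle A, its low libraries. POC1B-GALNT4 had a mean DOX difference of 0.93 (SE 0.30, edges of the 95% interval 0.20 and 1.66, unadjusted p 0.0203, adjusted p 1.00 in limma), higher in 4 of 4 pairs, and 0.49 with a pseudocount of 1. Over all alternatives its lowest adjusted p in limma was 0.114, with a replicate block and small RNA names left out. PMF1-BGLAP, from a kinetochore gene to that of osteocalcin, was at 3.59 and 2.95 FPKM in SE A and 3.36 and 2.55 in SE B, and at 3.29 and 2.81, and 2.72 and 3.39, in WT A and B.

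Few read-through rows moved one way in all 4 pairs. POC1B-GALNT4 and RTEL1-TNFRSF6B were higher in the library labelled DOX in all 4, 2 of 38 (5.26%) beside 4.84% of all rows. FKBP1A-SDCBP2, MSH5-SAPCD1 and MSANTD3-TMEFF1 were lower in all 4, 3 of 38 (7.89%) beside 5.54%. RTEL1-TNFRSF6B and MSANTD3-TMEFF1 are named after their values were seen. These shares are near the background. Groups did not overlap in 11 of 38 read-through rows (28.9%) for WT DOX against WT vehicle, beside 12.4% of all rows. For SE it was 7 (18.4%) beside 10.9%. For the difference of DOX effects, taken on pair values, it was 14 (36.8%) beside 29.5%. These 3 shares are above those of all rows, but for the mean DOX effect it was 0 of 38 beside 0.203%. Groups of 2 values can also fail to overlap without any effect. Deviations of same-letter libraries correlated less in read-through rows (0.156 in WT, 0.370 in SE) than in rows without small RNA names (0.757, 0.720). Whether this or DOX bears on the shares was not tested.

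**Figure D5:**
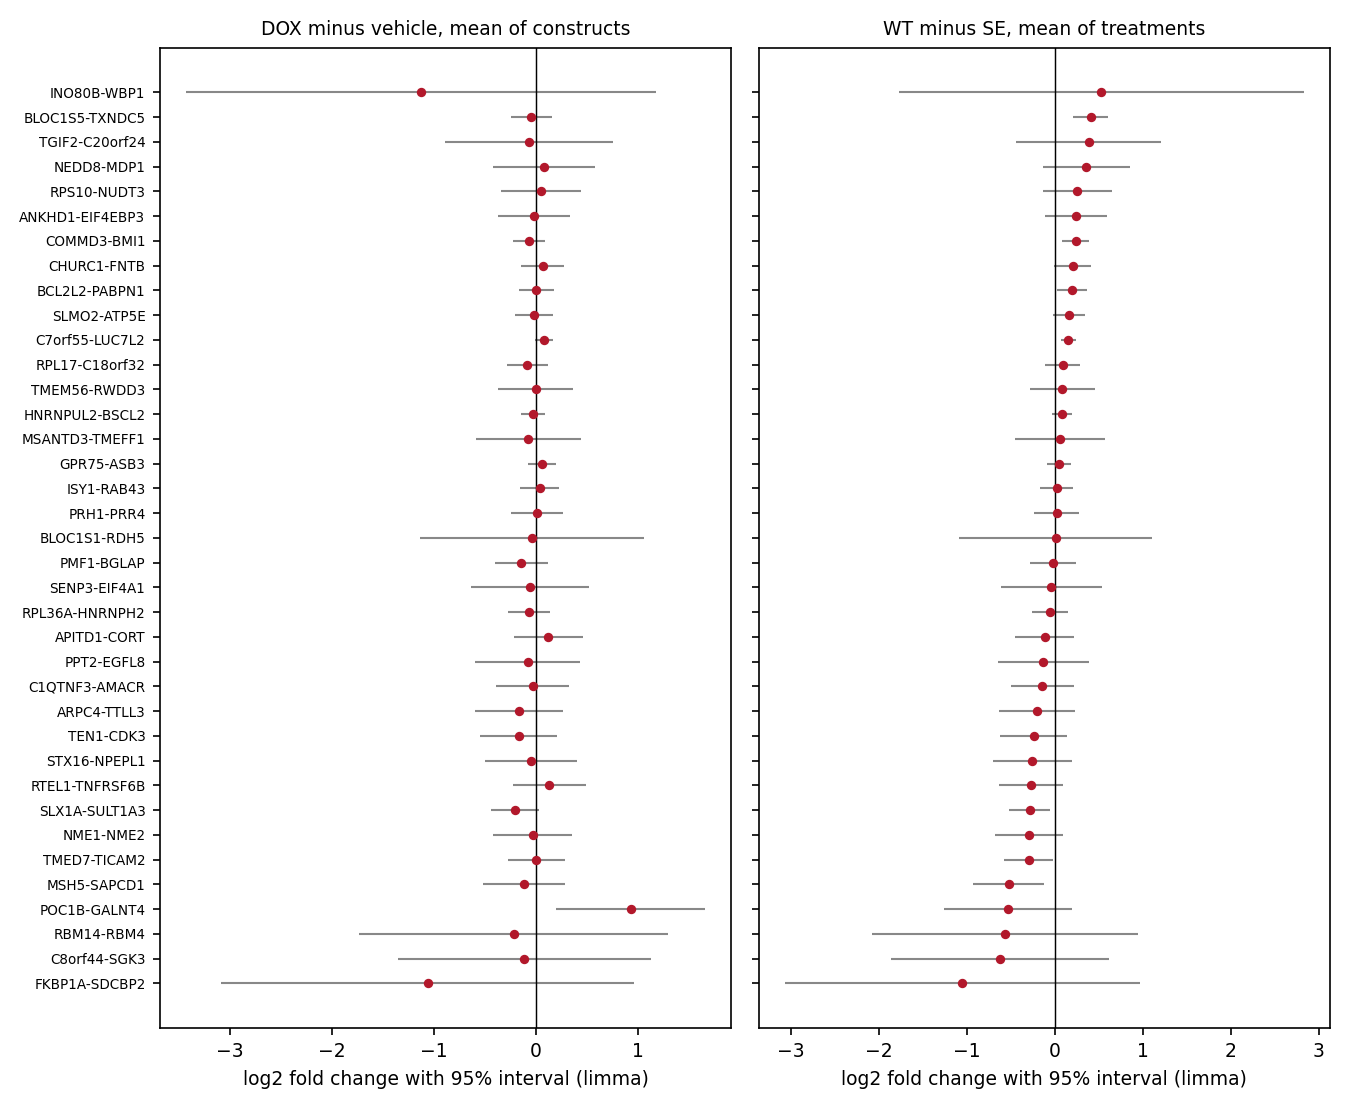
log2 fold changes with 95% intervals from limma for tested read-through rows, for DOX minus vehicle averaged over constructs (left) and WT minus SE averaged over treatments (right), ordered by the right panel. INO80B-WBP1 and FKBP1A-SDCBP2 have the widest intervals, and BLOC1S5-TXNDC5 lies at 0.41 on the right with an interval from 0.21 to 0.61.

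Between constructs, a few well-expressed read-through rows differed by small amounts that did not pass the adjusted threshold. BLOC1S5-TXNDC5, whose second gene encodes an endoplasmic reticulum disulfide isomerase, was at 16.7 and 14.3 FPKM in WT A, 14.9 and 13.5 in WT B, 11.1 and 12.8 in SE A, and 10.5 and 10.3 in SE B. All 4 WT values were above all 4 SE values, by 0.41 on the log2 scale (SE 0.083, unadjusted p 0.00229, adjusted p 0.140 in limma). With a term for the letter in the fit the difference was the same and the adjusted p was 0.0437, and over all alternatives it ran from 0.0273 to 0.419. TXNDC5 itself was between 68.7 and 78.5 FPKM, and its WT and SE ranges overlapped.

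COMMD3-BMI1 was at 30.7, 32.9, 34.8 and 31.5 FPKM in the WT libraries (A vehicle, A DOX, B vehicle, B DOX) and at 27.3, 27.7, 30.1 and 25.2 in the SE libraries. The groups did not overlap, and the difference was 0.24 (SE 0.065, adjusted p 0.204 in limma). C7orf55-LUC7L2 stood between 34.5 and 34.9 FPKM in WT and between 29.3 and 33.3 in SE, a difference of 0.15 (SE 0.036, adjusted p 0.165 in limma). LUC7L2 was at 66.5 to 71.0 FPKM in WT and 58.6 to 68.6 in SE. MSH5-SAPCD1, from a meiotic recombination gene, went the other way, with 4.64 to 7.503 FPKM in WT and 7.80 to 8.97 in SE (-0.53, SE 0.166, adjusted p 0.230 in limma). Its genes were also lower in WT, MSH5 at 9.25 to 10.3 FPKM against 10.6 to 14.2 in SE, and SAPCD1 at 4.04 to 6.49 against 6.06 to 8.06 with overlap.

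BCL2L2-PABPN1 (0.19), SLX1A-SULT1A3 (-0.29) and TMED7-TICAM2 (-0.30) also had an unadjusted p under 0.05 for WT minus SE averaged over treatments, with adjusted p between 0.2498 and 0.278 in limma, and the last 2 are named after their values were seen. SLX1A and SULT1A3 have near-identical copies, so reads of that row can also be split between copies. All 8 libraries split without overlap by construct in 4 of 38 read-through rows (10.5%), beside 19.4% of all rows. In vehicle alone it was 16 of 38 (42.1%), beside 41.2%, and in DOX 16 of 38 (42.1%), beside 36.4%. On the normalized table, which sets the spike-in sums nearly equal, the median of all rows for WT minus SE averaged over treatments was 0.43. There 6888 of the 6936 rows called were higher in WT, against 22 of 56 on the unnormalized table, and 60.5% of all rows tested were called. Of 39 read-through rows 16 were called, all 16 higher, a smaller share than that of all rows. BLOC1S5-TXNDC5 was at 0.82 there, above that median, and PMF1-BGLAP at 0.39, below it.

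Component genes gave calls at low counts, as did all rows (0.0441% to 0.0529% in the DOX comparisons, 0.176% in vehicle, 0.097% in DOX and 0.494% averaged over treatments). Of 157 component genes tested, 0 were called in any DOX comparison, 1 in WT minus SE in vehicle and in DOX (SOHLH2, a germ-cell transcription factor gene) and 2 averaged over treatments (SOHLH2 and PRR5, which encodes a subunit of mTORC2). The read-through row CCDC169-SOHLH2 was at the floor or at 0 in every library. Genes that end transcripts or degrade faulty ones were measured as 3 lists. All 23 cleavage and polyadenylation genes, 19 of 21 termination genes and all 24 genes of nonsense-mediated and nuclear RNA decay were tested, and 0 were called in any comparison in limma. At an unadjusted p under 0.05 the counts were 0 in the DOX comparisons for all 3 lists, and 0 of 23, 2 of 19 and 5 of 24 for WT minus SE averaged over treatments, beside 17.1% of all rows. For that comparison the list medians were 0.01, 0.04 and 0.07, beside 0.02 over all rows. CPSF4, a cleavage factor gene, had one of the smallest p-values of its list in WT DOX against WT vehicle, with a difference of -0.05 (SE 0.063, adjusted p 1 in limma).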

How the data were processed

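RNA of 8 NALM6 libraries was measured as FPKM (mapped fragments scaled by library size and transcript length). The authors deposited 2 FPKM tables with the same 23713 rows, unnormalized and normalized. HISAT, Cufflinks 2.0.0 and hg19 are named in the submitters' processing notes, and no source used here gives the normalization method. The files hold no counts, so depth is unknown.

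The unnormalized table was the main one. Rows averaging at least 1, spike-ins left out (11340 rows), were fitted as log2(FPKM + 0.1), a scale that understates the change of low rows, to 4 group means with limma 3.58.1 (R 4.3.3, trend-based empirical Bayes, Benjamini-Hochberg over all rows, threshold 0.05), a script tested on simulated data. Levels, pair changes and coefficients of variation are descriptions. Small RNA names start with MIR, SNOR, SCARNA, RNU, RN7 or RNA5.

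Read-through rows named are the 3 examples in the rule, the 10 highest, any past the threshold, the 3 largest changes without overlap per comparison, the 5 most and least steady, and those above both genes. A row that this rule selects is not reported here. Members and lists were chosen with earlier results of these data known.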

Additional observations from a re-analysis of the deposited data

How the results depend on the processing

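Of 440 recomputed fold changes of named read-through rows, 430 kept direction and side of the threshold, 4 passed it and 6 reversed. POC1B-GALNT4 for WT minus SE in DOX became 0.074 on the normalized table. Leaving out 1 library reversed its difference of DOX effects (0.20, range -0.36 to 0.76, with -0.13 without SE DOX A and -0.36 without SE vehicle B). It also reversed that of FKBP1A-SDCBP2 (-1.53, range -3.46 to 0.41, the last without WT DOX B) and the WT minus SE mean of INO80B-WBP1 (0.53, range -0.30 to 1.35, with -0.30 without WT vehicle A and -0.13 without SE vehicle B). The 4 that passed were BLOC1S5-TXNDC5 for WT minus SE averaged over treatments on the normalized table and under both replicate block fits, and COMMD3-BMI1 on the normalized table. Over all alternatives the difference of DOX effects ran from 2.22 to 7.56 for INO80B-WBP1 and from -3.55 to -1.32 for RBM14-RBM4, and the mean DOX effect of POC1B-GALNT4 from 0.49 to 1.21, with no change of direction.

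The median largest pair change of read-through rows, 0.32, was 0.24 with a pseudocount of 1, 0.53 on the normalized table, 0.68 with a minimum mean of 0.1, 0.22 with a minimum of 5, and 0.25 to 0.31 leaving out 1 pair. The count past 2-fold, 6, was then 2 with a pseudocount of 1, 31 with the minimum of 0.1, 1 with the minimum of 5, and 5 to 6 leaving out 1 pair.

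Counts of all rows called were small and moved. For WT DOX minus WT vehicle, 5 became 8 on the normalized table and 12 with only the groups compared. For SE DOX minus SE vehicle, 6 became 3 with the replicate block. For the difference of DOX effects, 5 became 9 on the normalized table and without a filter, and 8 with a pseudocount of 1 or a minimum of 0.1. For the mean DOX effect, 5 became 8 on the normalized table and with a minimum of 0.1. These 4 counts were 0 without small RNA names, with or without the replicate block. For WT minus SE in vehicle, 20 became 36 without a filter and 10 without small RNA names. In DOX, 11 became 25 with a minimum of 0.1 and 28 without a filter. Averaged over treatments, 56 became 6936 on the normalized table, 85 with a minimum of 0.1, 141 with the replicate block and 213 with the block and no small RNA names, while read-through rows called went from 0 to 16, 0, 1 and 1. Leaving out 1 library in turn gave 3 to 10, 4 to 24, 5 to 26, 3 to 24, 9 to 22, 7 to 26 and 18 to 48 rows in the same order, and 0 read-through rows in each comparison. The cause of these moves was not tested.

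Whether the letters pair the libraries is not given, and the main fit has no term for them. Same-letter libraries moved together once small RNA names were left out. The correlation of deviations from group means between same-letter libraries was 0.073 in WT and 0.093 in SE over all tested rows, 0.757 and 0.720 without small RNA names, and 0.156 and 0.370 over the 38 read-through rows. The replicate block changed no read-through call other than that of BLOC1S5-TXNDC5. The files hold no counts, so what depth limits cannot be given, and the intervals are wide for rows near the floor.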
